A study of Homo sapiens with 12 samples.

Results

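The step from 1 to 5 µM colforsin daropate was examined in HEYA8 cells, an established human ovarian cancer line. It compares the 3 libraries treated at 5 µM with the 3 treated at 1 µM, which are 6 of the 12 libraries of the series, and each 5 µM library was paired with the 1 µM library of the same label number (6, 8 or 11). Both groups were HEYA8 cultures for which the labels give no genetic change, grown in DMEM with 10% serum and exposed to drug for 48 h, and they differed in dose alone. The other 6 libraries held vehicle or 10 µM drug for the same 48 h, with numbers 6, 8 and 11 again, and their levels are given as description. They also entered the second fit described below, which estimated the spread from all 12 libraries. The series concerns MYC-driven high-grade serous ovarian carcinoma, and HEYA8 is the only line in it here. The submitters' design text calls the 3 libraries of a dose biological replicates, and the labels do not say what the numbers mark. Of 21207 genes in the table, 16903 entered the comparison because their value was more than 1 above the lowest value of the file in at least 3 of the 6 libraries. Among these, 22 entered through the 5 µM libraries alone and 17 through the 1 µM libraries alone.

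Colforsin daropate dissolves in water and derives from forskolin, a plant diterpene that activates adenylyl cyclase, the membrane enzyme that makes cyclic AMP (cAMP). cAMP releases the catalytic subunits of protein kinase A, which phosphorylate the transcription factor CREB and many other proteins, and phosphodiesterases break cAMP down again. In many cells the pathway restrains or reshapes growth factor signalling through RAF and MAP kinase, and its early target genes are often followed by feedback through phosphodiesterases and phosphatases. Since both groups received drug, the comparison concerns what was added between a lower and a higher dose.

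Expression is given as the authors' variance-stabilised value, which is on a log2 scale for abundant genes and flattens to a floor of 4.86 for rare ones, so a difference understates the fold of a rare gene. The file keeps 3 significant digits, so the smallest visible change is 0.01 for values under 10 and 0.1 for higher ones. Recovered counts are normalised read counts computed back from these values. The 6 libraries held 34800000 to 48600000 reads on genes. The number 6 libraries stood apart from those of 8 and 11 at both doses: deviations from the dose mean correlated at 0.75 across genes between the 1 and 5 µM libraries of number 6, at 0.41 for number 8 and at 0.48 for number 11. Those of number 8 at 1 µM and 11 at 5 µM correlated at 0.47, so the numbers set 6 apart more than they separate 8 from 11. Of 15 ovarian and epithelial markers 11 were in the table. PAX8, the lineage factor of fallopian-type carcinoma, had mean recovered counts of 10144 at 1 µM and 10285 at 5 µM, and vimentin (VIM) and CD44 were abundant. So were the keratins KRT7 (5142 at 1 µM and 8665 at 5 µM), KRT8 (16112.5 and 11843) and KRT18 (18614 and 14275). EPCAM and KRT19 had mean counts under 10. CDH1 was not analysed here. Of 14 immune markers 5 were listed, with summed recovered counts of 33.5 to 35.8 at 1 µM and 44.9 to 63.5 at 5 µM, and CD14 was at 0 at 1 µM. Of 12 endothelial and fibroblast markers 8 were listed, with sums of 4244 to 9909 at 1 µM and 4385 to 6531 at 5 µM, mostly from CDH5 (VE-cadherin).

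The paired test on the 6 libraries called no gene. In this limma linear model with the label number as a block, 0 genes were higher and 0 lower at 5 µM at a Benjamini-Hochberg adjusted p under 0.05 (0% of 16903), and the lowest adjusted p was 0.0958. At an unadjusted p under 0.05 there were 3820 genes (22.6%), of which 1755 were higher (10.4%) and 2065 lower (12.2%). limma-voom on recovered counts also called 0 and 0. In 417 genes the 3 paired differences were identical at the rounding of the file, and with these genes the model shrank little towards the common spread (prior degrees of freedom 1.43). With dose groups alone and no pairing, the 6 libraries gave 6 genes higher and 3 lower.

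A second fit estimated the spread from all 12 libraries, with 4 dose groups and the label number as a block, and called 447 genes higher (2.64%) and 490 lower (2.9%) for the same contrast of 5 with 1 µM. All 937 (5.54%) moved the same way in the 3 pairs. Below, "rose" and "fell" mean a call in this fit, adjusted p-values come from it, and ± after a difference is its standard error from it. This fit was listed as an alternative to the test on the 6 libraries, and it is used here because that test had called none. Counts of called list members are to be read against the 2.64% and 2.9% called over all genes. Genes named further on were chosen by the rule for the largest calls applied to this fit, or from the gene lists, with values in view. In the fit to the 6 libraries the 178 genes of these that were called had adjusted p-values of 0.0958 to 0.273. Without the libraries of number 6 the 12-library fit called 367 higher (2.17%) and 358 lower (2.12%), of which 259 and 224 were among the 447 and 490. Without number 8 it called 12 higher (0.071%) and 2 lower (0.0118%), and without number 11 12 higher (0.071%) and 3 lower (0.0177%). Genes called in all of these fits were FGFBP1, IGFBP3, ZSCAN31, C1S, SHISA2 and AKR1C3 upward, and ALOX5AP and ENSG00000283265 downward. Every other gene named below as having risen or fallen lost its call without at least 1 of the 3 numbers.

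Most genes moved little. The median absolute difference was 0.10, and 97.4% of genes stayed within 0.5. The median absolute difference was 0.15 in pair 6, 0.14 in pair 8 and 0.11 in pair 11, and 111, 58 and 59 genes moved by 1 or more in them. Among called genes, 37 rose and 13 fell by 1 or more. For scale, 3046 genes (18%) were higher in all 3 pairs and 3279 (19.4%) lower in all 3, while in 1127 (6.67%) all 3 libraries at 5 µM lay above the 3 at 1 µM and in 1270 (7.51%) all lay below.

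Genes of the NRF2 antioxidant programme formed the list with the largest share of rises. NRF2 (NFE2L2) is a transcription factor held low by KEAP1, and when released it binds antioxidant response elements in genes for glutathione synthesis, thioredoxin reduction, NADPH supply and drug conjugation. Of 27 genes listed, 26 were in the table and 23 were tested; 16 rose and 0 fell, against 2.64% and 2.9% of all genes. The median difference was 0.50, beside 0 over all genes, with 20 of 23 higher in all 3 pairs (18% of all genes). The medians were 0.70 in pair 6, 0.50 in pair 8 and 0.50 in pair 11. Without number 6, 12 rose, and without number 8 or number 11, 2 rose in each case. Promoters of 4 of the genes that rose are shown first, because their 250 bases before the RefSeq start hold the core letters of the antioxidant response element (TGACNNNGC on either strand, in capitals). This motif was searched after the values were seen.

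The windows are from RefSeq on GRCh38.p14, read along the gene, and end at the base before the start: GCLM at chr1:93909431-93909680, minus strand, TXNRD1 at chr12:104215529-104215778, plus strand, PGD at chr1:10398814-10399063, plus strand and ME1 at chr6:83431052-83431301, minus strand.
GCLM promoter: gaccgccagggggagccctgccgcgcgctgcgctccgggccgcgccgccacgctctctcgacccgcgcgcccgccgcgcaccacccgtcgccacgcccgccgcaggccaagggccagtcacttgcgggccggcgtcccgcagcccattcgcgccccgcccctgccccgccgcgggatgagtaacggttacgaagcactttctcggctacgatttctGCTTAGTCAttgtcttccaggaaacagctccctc
TXNRD1 promoter: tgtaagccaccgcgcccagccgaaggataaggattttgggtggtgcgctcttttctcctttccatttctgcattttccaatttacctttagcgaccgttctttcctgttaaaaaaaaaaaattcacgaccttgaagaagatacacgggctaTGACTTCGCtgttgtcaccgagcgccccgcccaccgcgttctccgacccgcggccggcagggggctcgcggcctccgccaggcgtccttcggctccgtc
PGD promoter: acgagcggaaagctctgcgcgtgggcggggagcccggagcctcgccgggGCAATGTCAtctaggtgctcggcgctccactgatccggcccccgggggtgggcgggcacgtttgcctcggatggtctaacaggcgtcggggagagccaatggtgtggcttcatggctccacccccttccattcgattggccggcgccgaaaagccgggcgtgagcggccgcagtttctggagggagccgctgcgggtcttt
ME1 promoter: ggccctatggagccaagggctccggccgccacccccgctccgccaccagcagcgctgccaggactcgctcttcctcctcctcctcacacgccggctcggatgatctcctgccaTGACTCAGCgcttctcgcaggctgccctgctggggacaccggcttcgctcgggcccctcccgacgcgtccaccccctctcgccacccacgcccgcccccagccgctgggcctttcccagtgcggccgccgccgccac
Over windows of 300 bases (250 before to 50 after the start) these letters occur in 13.6% of all 27305 promoters, in 15.1% of the 11290 promoters of tested genes and in 15.9% of the 320 of genes that rose. They occur in 4 of the 16 NRF2-list genes with a window, all of them genes that rose. A match is a run of letters and not a measured site.

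The thioredoxin and quinone enzymes were among the most abundant that rose. TXNRD1 (ENSG00000198431, chromosome 12, 104215779 to 104350305, plus strand, GRCh38), which reduces thioredoxin with NADPH, had values of 14.3, 14.7 and 14.7 at 1 µM in numbers 6, 8 and 11, and of 15.6, 15.7 and 15.7 at 5 µM. The groups did not overlap, and the difference was 1.10 ± 0.09 (adjusted p = 4.45e-05), or 2.13-fold in mean recovered counts. NQO1 (ENSG00000181019, chromosome 16, 69706996 to 69726951, minus strand), a quinone reductase often used as a readout of NRF2, went from 13.8, 14.3 and 14.2 to 15.3, 15.1 and 15 (difference 1.03 ± 0.16, adjusted p = 0.00425). In vehicle TXNRD1 was at 13.7, 14.3 and 14.3 and NQO1 at 13, 13.8 and 13.7. At 10 µM they were at 15.7, 15.9 and 16, and at 15.3, 15.2 and 15.3. At 10 µM both genes were at or slightly above their 5 µM level in every number.

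Cystine import and glutathione synthesis rose with them. SLC7A11, the cystine carrier of system xc-, was at 12.4, 13.8 and 13.8 at 1 µM and at 14.5, 15 and 14.6 at 5 µM, a difference of 1.37 ± 0.22 (adjusted p = 0.00442) with 2.10 in pair 6 and 0.80 in pair 11. Its overlapping antisense gene SLC7A11-AS1 also rose, by 1.24, and since the strand setting of the counting is not given, reads of the pair cannot be told apart. SLC3A2, the partner chain of the carrier, rose by 0.33. The 2 subunits of glutamate-cysteine ligase, which makes the first bond of glutathione, rose by 0.70 ± 0.07 (GCLM, the modifier subunit) and 0.50 ± 0.07 (GCLC, the catalytic subunit). GCLM stood at 10.7, 10.3 and 10.6 at 1 µM and at 11.3, 11.2 and 11.2 at 5 µM. Glutathione reductase (GSR) rose by 0.37 and was higher in all 3 pairs.

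Enzymes that supply NADPH, and others of the pentose phosphate pathway, followed the same direction. PGD, a dehydrogenase of the pentose phosphate pathway, was at 11.8, 12 and 12 and then at 12.5 in every library (0.57 ± 0.07). TALDO1, transaldolase, rose by 0.70 ± 0.08 and ME1, malic enzyme, by 0.47 ± 0.09. TKT, transketolase, differed by 0.27 and did not pass (adjusted p = 0.165). In each of these 3 that rose all libraries at 5 µM lay above those at 1 µM.

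Conjugation, export and iron storage made up the rest. ABCC3, a pump for organic anions and glucuronides, rose from 10, 9 and 9.09 to 11.5, 10.6 and 10.5, with 1.5, 1.6 and 1.41 in the pairs (difference 1.5 ± 0.12, adjusted p = 3.16e-05). AKR1C3, an aldo-keto reductase of steroids and prostaglandins, rose by 1.01 ± 0.06 and AKR1C1 by 0.76 ± 0.13. The 2 are related genes of similar sequence, and whether reads were misassigned between them was not tested. FTH1, the ferritin heavy chain, rose by 0.43 ± 0.09, OSGIN1 by 0.60 ± 0.11 and HMOX1, haem oxygenase, by 0.40 ± 0.09. HMOX1 overlapped between doses, with 9.21, 9.82 and 9.64 at 1 µM against 9.81, 9.96 and 10.1 at 5 µM. ABCC2, a related pump, differed by 0.37 without passing (adjusted p = 0.138). Thioredoxin itself (TXN), the ferritin light chain (FTL), peroxiredoxin 1 (PRDX1) and the regulators NFE2L2 and KEAP1 differed by 0.17, 0.20, 0.13, 0.13 and 0.10, and none of them passed. TXNIP, a thioredoxin-binding arrestin outside the list, fell from 13.8, 13.5 and 13.9 to 12, 12.7 and 13 (difference -1.17 ± 0.18, adjusted p = 0.00335).

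**Figure D1:**
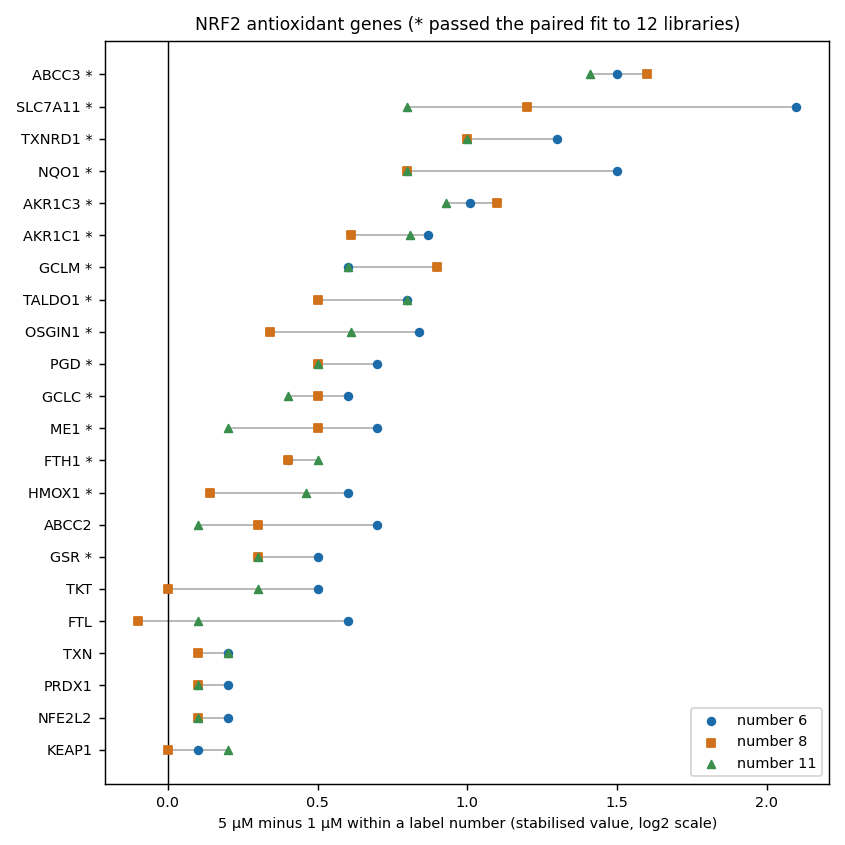
Difference of 5 µM minus 1 µM within each label number (x axis, stabilised value on the log2 scale) for 22 tested genes of the NRF2 list (y axis), with 1 symbol per number, a grey line over their range and an asterisk for those that rose in the paired fit to 12 libraries. The mean difference of each gene drawn lies above 0, and ABCC3 and SLC7A11 lie highest.

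On the stabilised scale the largest rise among the named genes was in a growth factor carrier, FGFBP1. As ratios of mean recovered counts LRP1B (6.10-fold), PDE3A (5.50-fold) and CYP1B1 (5.13-fold), all rarer genes, stood above its 5.10-fold. Within pairs 6, 8 and 11 the count folds were 6.75, 4.43 and 5.32 for FGFBP1 and 6.39, 4.92 and 3.89 for PDE3A. They were 7.85, 3.13 and 6.75 for LRP1B and 4.11, 5.43 and 27.7 for CYP1B1. The order thus differed between pairs, and LRP1B and CYP1B1 had mean counts of 15.9 and 20.7 at 1 µM. FGFBP1 (ENSG00000137440, chromosome 4, 15935569 to 15938740, minus strand), a secreted protein that frees fibroblast growth factors from the matrix, had values of 7.02, 8.53 and 8.75 at 1 µM and of 9.19, 10.5 and 11 at 5 µM. No library at 5 µM fell within the 1 µM range. The difference was 2.13 ± 0.12 (adjusted p = 5.12e-06, and 1.4e-08 to 0.322 over the other settings), and mean recovered counts went from 255 ± 156 to 1303 ± 735 (SD, n = 3), a 5.10-fold rise. IGFBP3 (ENSG00000146674, chromosome 7, 45912245 to 45921874, minus strand), the main carrier of insulin-like growth factors, rose from 10.6, 8.76 and 9.26 to 12.2, 11 and 11.1 (difference 1.89 ± 0.11, adjusted p = 5.72e-06). In both genes number 6 differs in level from 8 and 11 at each dose, lower for FGFBP1 and higher for IGFBP3, while the paired differences are close.

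The insulin-like growth factor axis had further calls. Of 14 tested genes for IGF-binding proteins, their protease and its inhibitors, 3 rose and 1 fell, against 2.64% and 2.9% of all genes. The median was 0.08. PAPPA, the protease that cleaves IGFBP4, rose from 11.4, 11.4 and 11.7 to 12.9, 12.6 and 12.6 (1.20 ± 0.19), and its substrate IGFBP4 rose by 0.53 ± 0.08 with 0.60, 0.50 and 0.50 in the pairs. PAPPA overlaps the antisense gene PAPPA-AS1, which rose by 1.29. The stanniocalcins STC1 and STC2, inhibitors of PAPPA, differed by -0.27 and 0.27 without passing. IRS2, the adaptor that carries insulin and IGF receptor signals inward, fell by 0.60 ± 0.09, from 9.72, 9.78 and 9.75 to 9.04, 9.29 and 9.13.

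Secreted and receptor genes filled much of the top of the list. LPAR1, a receptor for lysophosphatidic acid, rose from 8.69, 7.57 and 7.91 to 9.98, 9.24 and 9.83 (difference 1.63 ± 0.13, adjusted p = 3.75e-05). SPP1, which encodes the matrix cytokine osteopontin, rose from 11.6, 12 and 12.1 to 13.6, 13.3 and 13.1 (1.43 ± 0.27), by 2 in pair 6 and 1 in pair 11. SCG2, a secretogranin of dense-core vesicles, rose from 8.12, 6.10 and 6.61 to 9.35, 8.09 and 8.10 (1.57 ± 0.24), and here the number 6 library at 1 µM exceeded both lower libraries at 5 µM. ACKR3, a scavenging receptor for CXCL12, rose by 1.26 ± 0.19 with 0.53 in pair 6 against 1.53 and 1.71 in pairs 8 and 11. C1S, a complement protease, rose by 1.20, 1.27 and 1.26 in the pairs. NRCAM, a neural adhesion molecule, rose by 1.23, 1.12 and 1.17. GUCY1A2, a subunit of soluble guanylyl cyclase, rose by 1.38 ± 0.13. Further large rises were in NMRAL2P (1.89), TRIM16L (1.58), ZSCAN31 (1.53), ADAMTS5, an aggrecan-cleaving protease (1.31 ± 0.11), and CYP1B1, a cytochrome P450 of oestrogens (1.31 ± 0.15).

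**Figure D2:**
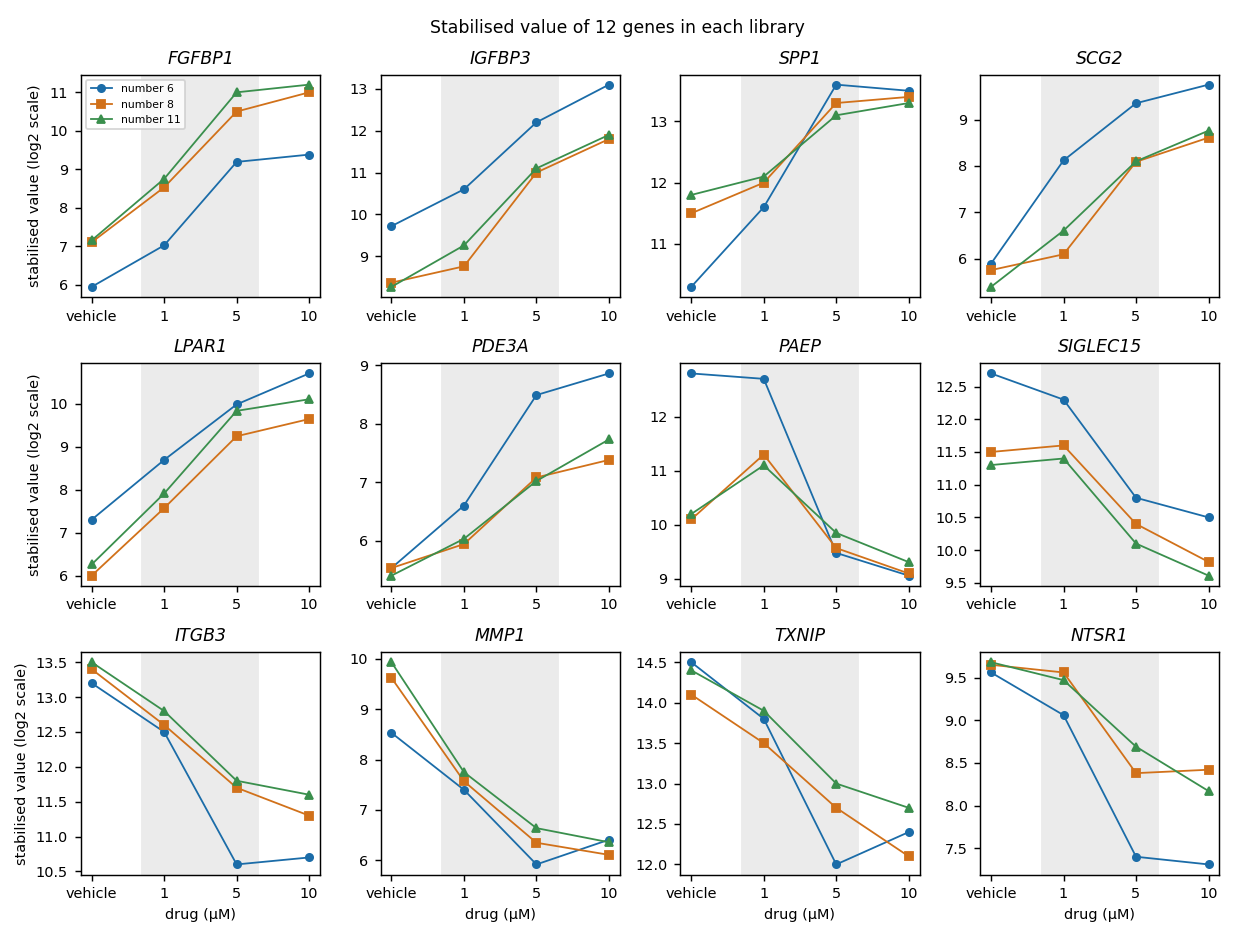
Stabilised value (y axis, log2 scale, own range in each panel) of 12 genes in each of the 12 libraries by dose (x axis: vehicle, 1, 5 and 10 µM, evenly spaced), with 1 line per label number and the 1 and 5 µM groups shaded. The first 6 rose and the last 6 fell between the shaded doses in each of the 3 numbers. The paired difference of PAEP is -3.22 in number 6, -1.73 in number 8 and -1.25 in number 11.

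On the stabilised scale the largest falls among the named genes were in PAEP, SIGLEC15 and DEPP1. As ratios of mean recovered counts, which set the pairing aside, DEPP1 was 7.12-fold lower, PAEP 5.03-fold, MMP1 4.13-fold and SIGLEC15 2.63-fold. PAEP (ENSG00000122133, chromosome 9, 135561756 to 135566955, plus strand), glycodelin, a secreted lipocalin of endometrial glands, was at 12.7, 11.3 and 11.1 at 1 µM and at 9.48, 9.57 and 9.85 at 5 µM. Its groups did not overlap, and the difference was -2.07 ± 0.47 (adjusted p = 0.0267, and 0.00495 to 0.401 over the other settings). In vehicle it stood at 12.8, 10.1 and 10.2. In numbers 8 and 11 the 1 µM value was thus the highest of the 4 doses. SIGLEC15, a sialic acid receptor known for restraining T cells, went from 12.3, 11.6 and 11.4 to 10.8, 10.4 and 10.1 (difference -1.33 ± 0.12, adjusted p = 8.98e-05). DEPP1, a stress-responsive regulator of autophagy, fell by 2.68 in pair 6 and by 0.65 and 0.66 in the others (difference -1.33 ± 0.34, adjusted p = 0.0445).

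NTSR1, the neurotensin receptor, fell from 9.06, 9.56 and 9.47 to 7.40, 8.38 and 8.69 (-1.21 ± 0.19). ALOX5AP, which presents arachidonic acid to 5-lipoxygenase, fell by 1.01, 1.20 and 1 in the pairs (-1.07 ± 0.06, adjusted p = 5.12e-06). ROBO4, a guidance receptor of endothelium, fell by 1.10 ± 0.16, and RRAGD, a GTPase of the amino acid sensing pathway to mTORC1, by 0.97 ± 0.13. MYCT1 and SUN3 fell by 1.08 and 1.02. MT1E and MT2A, metallothioneins that bind zinc and copper, fell by 0.93 ± 0.09 and 0.67 ± 0.09, while the zinc exporter SLC30A1 rose by 0.53 ± 0.11. HMGA1, an architectural chromatin protein, fell from 15.8, 16.3 and 16.2 to 14.8, 15.2 and 15.5 (-0.93 ± 0.09), and PODXL, an anti-adhesive sialomucin, from 12.5, 12.5 and 12.4 to 11.7, 11.5 and 11.4.

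Promoter windows of the 28 largest changes were searched on both strands for the cAMP response element TGACGTCA, a loose AP-1 pattern TGANTCA and the E-box CACGTG. A window was found for 17 of the 28. None holds TGACGTCA, PDE3A and PAEP hold TGANTCA and GUCY1A2 holds CACGTG, and these 3 are shown because the rule set for the search picks them. The usual AP-1 site has C or G at N, which PAEP (TGAGTCA) meets and PDE3A (TGAATCA) does not. The 250 bases before the start are at chr11:107018477-107018726, minus strand (GUCY1A2), chr12:20571829-20572078, plus strand (PDE3A) and chr9:135561506-135561755, plus strand (PAEP), from RefSeq on GRCh38.p14, with the motif in capitals. The PDE3A start used by RefSeq here lies inside the gene as GENCODE 29 draws it.
GUCY1A2 promoter: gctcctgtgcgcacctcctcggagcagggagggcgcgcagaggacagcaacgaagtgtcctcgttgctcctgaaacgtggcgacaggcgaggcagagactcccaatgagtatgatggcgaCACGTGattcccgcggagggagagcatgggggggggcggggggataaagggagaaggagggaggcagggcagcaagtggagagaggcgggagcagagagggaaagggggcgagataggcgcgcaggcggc
PDE3A promoter: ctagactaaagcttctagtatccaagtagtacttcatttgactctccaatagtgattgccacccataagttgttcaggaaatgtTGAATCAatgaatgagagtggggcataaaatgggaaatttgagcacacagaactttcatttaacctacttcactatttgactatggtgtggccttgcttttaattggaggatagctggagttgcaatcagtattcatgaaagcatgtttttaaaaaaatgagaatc
PAEP promoter: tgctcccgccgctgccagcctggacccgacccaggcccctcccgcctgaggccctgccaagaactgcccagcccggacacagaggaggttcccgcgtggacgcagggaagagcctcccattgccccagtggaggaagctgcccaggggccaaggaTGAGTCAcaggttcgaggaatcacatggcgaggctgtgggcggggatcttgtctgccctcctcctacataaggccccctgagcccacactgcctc
TGACGTCA occurs in 1.98% of all 27305 promoter windows, in 3.29% of those of tested genes, in 3.12% of those of genes that rose and in 2.84% of those of genes that fell. TGANTCA occurs in 7.76%, 4.89%, 8.44% and 5.11% of these sets, and CACGTG in 7.43%, 9.74%, 8.12% and 8.24%. The shares in genes that rose or fell are given as description, with no test.

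Of 12 tested phosphodiesterases that hydrolyse cAMP, 3 rose and 1 fell, against 2.64% and 2.9% of all genes, with a median of 0.11. PDE3A, a cGMP-inhibited phosphodiesterase, rose from 6.60, 5.94 and 6.03 to 8.49, 7.08 and 7.02 (1.34 ± 0.24), and its mean recovered count went from 28.2 ± 16.8 to 155 ± 129 (SD, n = 3), a 5.50-fold rise from a low level. PDE4B, a CREB-induced cAMP phosphodiesterase, rose from 9.19, 9.11 and 9.19 to 9.85, 9.72 and 9.72 (0.60 ± 0.10), and PDE7B by 0.73 ± 0.17. PDE2A, which is activated by cGMP, fell from 11.3, 11.7 and 11.6 to 10.8, 11.1 and 11.1 (-0.53 ± 0.13). PDE4D, another member of the PDE4 family, differed by 0.27 and did not pass (adjusted p = 0.137).

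Producers and effectors of cAMP showed 1 rise and 1 fall among 12 tested, against 2.64% and 2.9% of all genes. ADCY3, an adenylyl cyclase, fell by 0.50 ± 0.13, from 10.3, 10.4 and 10.3 to 9.72, 9.82 and 9.95, and POPDC3, a cAMP-binding membrane protein, rose by 0.43 ± 0.09. ADCY6, ADCY7, ADCY9 and the cAMP-binding exchange factor RAPGEF3 differed by 0.13, 0.03, 0.22 and 0.03 and did not pass. Among 18 tested subunits, inhibitors and anchors of protein kinase A, 0 rose and 1 fell: AKAP1, which tethers the kinase to mitochondria, by 0.23 ± 0.06. PRKACA, PRKACB and PRKAR1A, its subunits, differed by -0.07, 0.13 and 0.03.

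CREB targets moved in both directions. Of 34 tested, 5 rose and 3 fell, against 2.64% and 2.9% of all genes. The median was -0.14 overall and -0.215, 0.005 and 0.005 in pairs 6, 8 and 11. Beside SCG2 and PDE4B, the neurotrophin BDNF rose from 10.7, 11.1 and 11.1 to 11.6, 11.8 and 11.8 (0.77 ± 0.08), INHBA, the activin A subunit, by 0.67 ± 0.12 and DUSP1, a MAP kinase phosphatase, by 0.47 ± 0.09. NR4A1, an orphan nuclear receptor, fell from 7.83, 8.21 and 8.16 to 7.41, 7.57 and 7.64 (-0.53 ± 0.09). JUNB and CITED2, a CBP-binding coregulator, fell by 0.38 ± 0.10 and 0.40 ± 0.10. CREM, NR4A3 and SGK1 differed by 0.17, -0.42 and -0.17 and did not pass. 

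Among genes under MAP kinase control, 22 phosphatases, Sproutys and immediate early genes were tested. Of these 2 rose and 7 fell, against 2.64% and 2.9% of all genes, with a median of -0.10. DUSP6, the ERK phosphatase induced by ERK itself, fell from 13.1, 13.4 and 13.5 to 12.5, 13.1 and 13.2 (-0.40 ± 0.07). SPRY2 and SPRY4, feedback inhibitors of receptor signalling, fell by 0.40 ± 0.09 and 0.47 ± 0.08, and EGR1, an early growth response factor, from 8.88, 9.28 and 9.31 to 7.73, 8.78 and 8.82 (-0.71 ± 0.14). PTPRR, a phosphatase that holds MAP kinases inactive, fell by 1.02 ± 0.10, and IER2 and DUSP7 by 0.33 each. DUSP4, a nuclear phosphatase of the same family, went the other way, from 10.1, 9.65 and 9.66 to 10.7, 10.2 and 10.2 (0.56 ± 0.07), as did DUSP1. Of 15 AP-1 subunits 0 rose and 2 fell, against the same shares of all genes. The falls were in JUNB and FOSL1, the latter from 11.9, 11.9 and 11.8 to 11.3, 11.3 and 11.6 (-0.47 ± 0.08).

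Of 24 tested integrins and laminins, 3 rose and 4 fell, against 2.64% and 2.9% of all genes. ITGB3, the beta 3 chain of the vitronectin receptor, fell from 12.5, 12.6 and 12.8 to 10.6, 11.7 and 11.8 (-1.27 ± 0.16, adjusted p = 0.00111), by 1.90 in pair 6 and 0.90 and 1 in the others. The laminin receptor chain ITGA6 fell by 0.63 ± 0.11 and LAMA4, a laminin chain, by 0.60 ± 0.09. ITGB8, a chain that activates latent TGF-beta, rose by 1.03 ± 0.26, with 0.30 in pair 6 and 1.28 and 1.5 in pairs 8 and 11, and the collagen receptor chains ITGA11 and ITGA2 rose by 0.80 ± 0.13 and 0.57 ± 0.08. For ITGB8 the levels of number 6 (11.1 at 1 µM) exceeded every level of numbers 8 and 11 at 5 µM (8.99 and 8.96).

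Matrix proteases and collagens also had calls on both sides. MMP1, interstitial collagenase, fell from 7.40, 7.57 and 7.75 to 5.92, 6.35 and 6.64 (-1.27 ± 0.22, adjusted p = 0.00619), with mean recovered counts of 138 ± 22.7 and 33.3 ± 16.8 (SD, n = 3), 4.13-fold lower. It shares its locus with WTAPP1 on the other strand, which fell as well. MMP9, a gelatinase, fell by 0.69 ± 0.15, while ADAMTS5 and ADAMTS12 rose by 1.31 and 0.63. In all, 3 of 23 rose and 2 fell, against 2.64% and 2.9% of all genes. Among 33 collagens and associated genes COL1A1 (0.76 ± 0.16), SPARC, a collagen-binding glycoprotein (0.60 ± 0.08), and COL5A2 (0.43 ± 0.10) rose and COL27A1 fell by 0.47 ± 0.11. These 3 rises and 1 fall stand against the same shares of all genes, and without number 8 or number 11 there were 0 calls.

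The intermediate filament VIM, one of the most abundant transcripts, fell from 18.3, 17.6 and 17.7 to 17.4, 17 and 17.2 (-0.67 ± 0.11), and the epithelial keratin KRT7 rose from 12.9, 12.1 and 11.8 to 13.7, 12.7 and 12.6 (0.73 ± 0.11). KRT8 and KRT18, another keratin pair of simple epithelia, went down without passing (-0.43 and -0.37, adjusted p = 0.0991 and 0.134). Of 13 tested regulators of the epithelial to mesenchymal transition and cadherins, 3 rose and 2 fell, against 2.64% and 2.9% of all genes. KRT7, CDH2 (N-cadherin, by 0.40 in every pair) and CDH4 went upward, VIM and TWIST2 (-0.56 ± 0.11) downward. Of 29 tested SRF targets of the contractile cytoskeleton 0 rose and 2 fell, against 2.64% and 2.9% of all genes, namely the myosin kinase MYLK, from 12.8, 13.2 and 13.2 to 12.1, 12.5 and 12.6 (-0.67 ± 0.07), and the myosin light chain MYL9 (-0.42 ± 0.10).

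Of 35 semaphorins, plexins and guidance receptors 2 rose and 5 fell, against 2.64% and 2.9% of all genes. PLXNA2, a semaphorin receptor, fell from 10.9, 10.7 and 10.5 to 10, 9.98 and 9.72 (-0.80 ± 0.10), SEMA7A, a membrane-anchored semaphorin, by 0.63 ± 0.08 and the co-receptor NRP2 by 0.30 ± 0.07. SEMA3E and SEMA3C, secreted semaphorins, rose by 0.83 ± 0.16 and 0.37 ± 0.08. Among 26 receptor tyrosine kinases and ephrins ROR1 and EFNA5 rose (0.58 and 0.40) and AXL and TYRO3, kinases of one family that bind GAS6, fell (-0.30 and -0.48). These 2 rises and 2 falls stand against the same shares of all genes.

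Of 38 tested genes of TGF-beta, activin and BMP signalling, 8 rose and 0 fell, against 2.64% and 2.9% of all genes, with a median of 0.08. Without number 6, 6 rose and 1 fell. Without number 8, 1 rose and 0 fell, and without number 11 there were 0 of each. ID1, an inhibitor of basic helix-loop-helix factors and a BMP target, rose from 9.99, 9.05 and 8.95 to 11.1, 9.94 and 10 (1.02 ± 0.12, adjusted p = 0.000597), and ID3 by 0.95 ± 0.10. Among ligands, INHBA rose as given above, from 14.5, 14.2 and 14.5 to 15.2, 15 and 15, and TGFB2 by 0.61 ± 0.14. SMAD3 and SMAD2, which carry TGF-beta and activin signals to the nucleus, rose by 0.53 ± 0.09 and 0.40 ± 0.08; SMAD2 rose by 0.40 in each pair. TGFBI, a matrix protein named for its induction by TGF-beta, rose by 0.43 ± 0.08.

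Of 27 tested interleukins, chemokines and related genes 1 rose and 3 fell, against 2.64% and 2.9% of all genes: IL11 rose from 11.9, 10.5 and 10.8 to 12.4, 11.5 and 12.1 (0.93 ± 0.18), TNF fell from 8.79, 7.89 and 7.99 to 7.47, 7.27 and 7.26 (-0.89 ± 0.14), and IL32 and ICAM1 fell by 0.51 ± 0.08 and 0.57 ± 0.10. In the prostaglandin pathway PTGES, the terminal prostaglandin E synthase, rose from 9.19, 9.77 and 9.88 to 10.1, 10.6 and 11 (0.95 ± 0.12) and PTGR1, which breaks prostaglandins and leukotriene B4 down, by 0.37 ± 0.07. ALOX5AP, as given above, and the phospholipase PLA2G4C (-0.79 ± 0.20) fell, so that 2 of 12 rose and 2 fell, against 2.64% and 2.9% of all genes. PTGS2, cyclooxygenase 2, differed by 0.43 without passing (adjusted p = 0.451).

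MYC, the transcription factor in the title of the series, did not pass in either fit. MYC (ENSG00000136997, chromosome 8, 127735434 to 127741434, plus strand, GRCh38) was at 12.3, 12.6 and 12.5 at 1 µM and at 12, 12.3 and 12.3 at 5 µM. It was lower by 0.30, 0.30 and 0.20 in the pairs, while the ranges of the groups touched at 12.3. The difference was -0.27 ± 0.08, with an adjusted p of 0.114 in the fit to 6 libraries and 0.0827 in the fit to 12. Over the other settings the adjusted p ran from 0.0207 to 0.659, and it was 0.0103 with the genes of no spread left out. Mean recovered counts were 5623 ± 591 and 4669 ± 547 (SD, n = 3). Of 12 tested genes of the MYC network 0 rose and 0 fell, with a median of -0.10; its partner MAX differed by -0.07, and MXI1 and MGA, which compete for MAX, by -0.10 each.

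Genes for the protein synthesis machinery were lower. Of 79 cytosolic ribosomal protein genes, the structural parts of the ribosome, 0 rose and 55 fell, against 2.9% of all genes, with a median of -0.30. The medians were -0.30, -0.40 and -0.20 in pairs 6, 8 and 11, and 71 of 79 were lower in all 3 pairs (19.4% of all genes). Without number 6 there were 14 falls, and without number 8 or number 11 there were 0, so the count rests on all 3 numbers although the median kept its sign in each pair. RPSA, a protein of the small subunit, fell from 13.6, 13.8 and 13.7 to 13.1, 13.1 and 13.2 (-0.57 ± 0.07, adjusted p = 0.000706), and RPL14, of the large subunit, from 14.2, 14.3 and 14.3 to 13.8, 13.8 and 14 (-0.40 ± 0.06). RPS25 fell by 0.30 in every pair. RPL3 differed by -0.23 without passing, and RPS27 by -0.20. These genes have many processed copies in the genome. The share of reads that aligned to more than one place was 20.2%, 20.7% and 21.4% at 1 µM and 19.3%, 19.7% and 22% at 5 µM. These shares were computed back from values rounded in steps of 0.1, so differences of this size cannot be resolved. The part of such reads in the result was not tested.

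Other translation genes moved by less. Of 41 translation factors 0 rose and 5 fell, against 2.64% and 2.9% of all genes, with a median of -0.10. EEF1D, an exchange factor of elongation, fell by 0.43 ± 0.07 and PABPC1, the poly(A)-binding protein, by 0.33 ± 0.07. EIF4B fell by 0.30 ± 0.07 and EIF3L by 0.27 ± 0.07, and EIF3H fell too. Of 46 ribosome biogenesis factors 0 rose and 3 fell, against the same shares of all genes. The falls were in FBL, the methyltransferase of box C/D small nucleolar particles (-0.47 ± 0.10), and NPM1, nucleophosmin (-0.33 ± 0.06). The last was in TCOF1, a cofactor of ribosomal RNA transcription (-0.30 ± 0.07). Of 26 host genes of small nucleolar RNAs 3 fell, with SNHG29 at 14.4, 14.6 and 14.6 and then at 14, 14.2 and 14.4. HNRNPA1, a splicing factor, fell by 0.50 in each pair. Among 20 aminoacyl-tRNA synthetases 0 rose and 0 fell.

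Cell cycle genes were lower in nearly every member, with few calls. Of 49 G1/S and DNA replication genes 44 were lower in all 3 pairs (19.4% of all genes) and the median was -0.33. But only 1 rose and 6 fell, against 2.64% and 2.9% of all genes. CDT1, which loads the replicative helicase, fell from 8.33, 8.51 and 7.97 to 7.67, 7.54 and 7.29 (-0.77 ± 0.14, adjusted p = 0.00925). MCM5 and MCM2, parts of that helicase, fell by 0.53 ± 0.11 and 0.43 ± 0.11, and PCNA, the sliding clamp, from 12.1 in each library to 11.9, 11.9 and 11.8 (-0.23 ± 0.06). POLD1 and POLA1, replicative polymerases, fell by 0.49 and 0.33. CDK2, the kinase of S phase entry, was the one that rose, from 11.3, 11.1 and 11.2 to 11.6, 11.5 and 11.5 (0.33 ± 0.08). Without number 6, 12 of the 49 fell, and without number 8 or number 11, 0 fell. Over vehicle, 1 and 5 µM the median level of the list was 10, 9.9 and 9.58 in number 6. It was 9.49, 9.75 and 9.41 in number 8, and 9.3, 9.48 and 9.29 in number 11. In numbers 8 and 11 the 1 µM level was thus above vehicle, and the 5 µM level was slightly below vehicle.

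G2/M and histone genes depended on the pair. Of 37 G2/M genes 23 were lower in all 3 pairs (19.4% of all genes) and 0 passed. Their medians were -0.60 in pair 6, -0.14 in pair 8 and -0.19 in pair 11. AURKB, a mitotic kinase, was at 9.89, 8.96 and 8.41 at 1 µM and at 9.06, 8.40 and 7.95 at 5 µM (-0.62 ± 0.27, adjusted p = 0.224). TOP2A, MKI67 and CDK1, markers of cycling cells, differed by -0.37, -0.32 and -0.40, and in vehicle TOP2A stood at 14 in number 6 against 11.5 and 11.1 in numbers 8 and 11. Of 46 replication-dependent histone genes 23 were lower in all 3 pairs (19.4% of all genes) and 0 passed, with medians of -0.60, -0.40 and -0.01. The 12-library fit takes its spread from vehicle and 10 µM libraries too. Without number 6 it called 4 G2/M and 0 histone falls, and without number 8 or number 11, 0 of either. With robust empirical Bayes, a setting added after seeing the data, the 6 libraries gave 15 G2/M and 17 histone falls, among 939 over all genes. Over vehicle, 1, 5 and 10 µM the median level of the G2/M list was 11.2, 11, 10.4 and 9.28 in number 6, 8.93, 9.89, 9.61 and 9.33 in number 8, and 8.68, 9.5, 9.18 and 9.05 in number 11. Number 6 was thus lower at each higher dose, and numbers 8 and 11 were highest at 1 µM. In bulk RNA, fewer cells in a phase and less RNA per cell cannot be told apart.

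**Figure D3:**
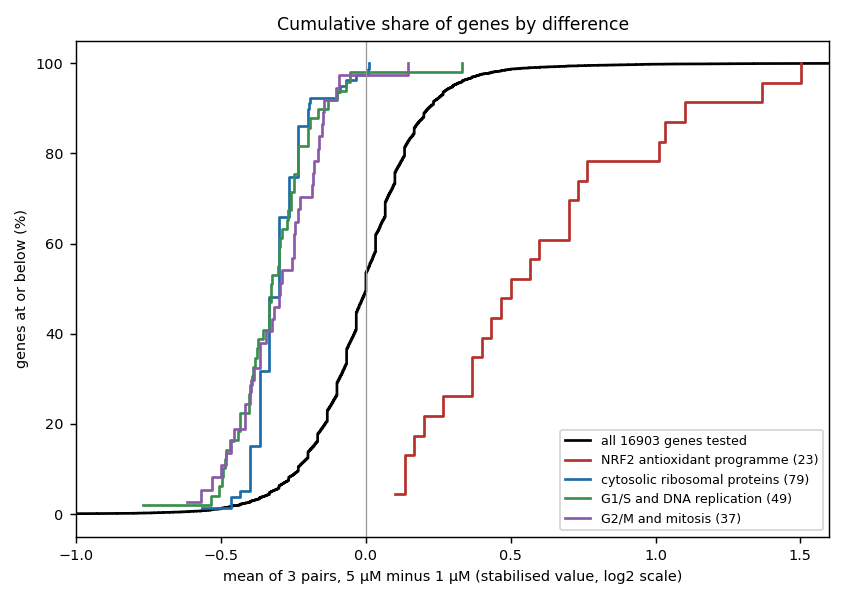
Cumulative share of genes (y axis, percent at or below) by the mean difference of the 3 pairs (x axis, 5 µM minus 1 µM, stabilised value on the log2 scale) for all 16903 tested genes and 4 lists. The NRF2 curve lies to the right of all genes, with a median of 0.50, and the ribosomal protein, G1/S and G2/M curves lie to the left, with medians of -0.30, -0.33 and -0.30.

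Brakes of the cell cycle and survival genes had single calls. CDKN1C, the CDK inhibitor p57, rose from 10.2, 8.87 and 8.95 to 10.9, 9.85 and 9.99 (0.91 ± 0.09, adjusted p = 0.000194), CDK6 rose by 0.33 and CDK4 fell by 0.23. BCL2, which blocks apoptosis, fell from 8.29, 8.57 and 8.41 to 7.80, 8.11 and 7.98 (-0.46 ± 0.09), and BMF, a BH3-only protein that binds it, rose by 0.50 ± 0.12. Of 25 p53 targets 1 rose and 1 fell, which is near the 2.64% and 2.9% of all genes: TIGAR, a phosphatase that lowers glycolytic flux, rose by 0.49 ± 0.07, and CCNG1, a cyclin, fell by 0.43 ± 0.06.

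In glycolysis 0 of 25 rose and 2 fell, against 2.64% and 2.9% of all genes, HK1 from 12.8, 13 and 13.1 to 12.3, 12.6 and 12.8 and PDK1, the kinase that closes the entry to the citric acid cycle, by 0.57 ± 0.15. Fatty acid synthase (FASN) fell from 10.4, 10.9 and 10.6 to 9.97, 10.2 and 10 (-0.58 ± 0.10), one of 2 falls among 20. Of 24 cholesterol synthesis genes 1 rose, the reductase TM7SF2 (0.49 ± 0.10), and HMGCS1 and SQLE differed by -0.20 and -0.03 without passing. SMOX, spermine oxidase, rose by 0.87 ± 0.07, and RDH10, the retinol dehydrogenase of retinoic acid synthesis, from 13.5, 12.5 and 12.7 to 14.2, 13.7 and 13.7. In endoplasmic reticulum folding 4 of 31 rose and 0 fell, against 2.64% and 2.9% of all genes, with a median of 0.13. The chaperones CANX (0.27 ± 0.07) and DNAJB11 (0.23 ± 0.06) were among the 4. Without number 8 or number 11 there were 0 calls in this list.

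Genes of the mitochondrial DNA, coding for respiratory chain subunits, were higher on the mean in 13 of 13. Of these 3 rose, against 2.64% of all genes. The medians were 0.33 in pair 6, 0 in pair 8 and 0.60 in pair 11. MT-ND2 was at 8.88, 8.98 and 8.26 at 1 µM and at 9.31, 9.26 and 8.96 at 5 µM (0.47 ± 0.12). Without any 1 of the 3 numbers 0 of the 13 were called. Interferon response genes (31 tested) and subunits and inhibitors of the phosphatase PP2A (23 tested) had 0 rises and 0 falls. Among them OAS3, which makes the oligoadenylate that activates RNase L, differed by -0.42 (adjusted p = 0.107) and its relative OAS2 by 0.32 (adjusted p = 0.0882). PPP2R3A, a regulatory subunit of PP2A, differed by -0.27 (adjusted p = 0.0787).

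**Figure D4:**
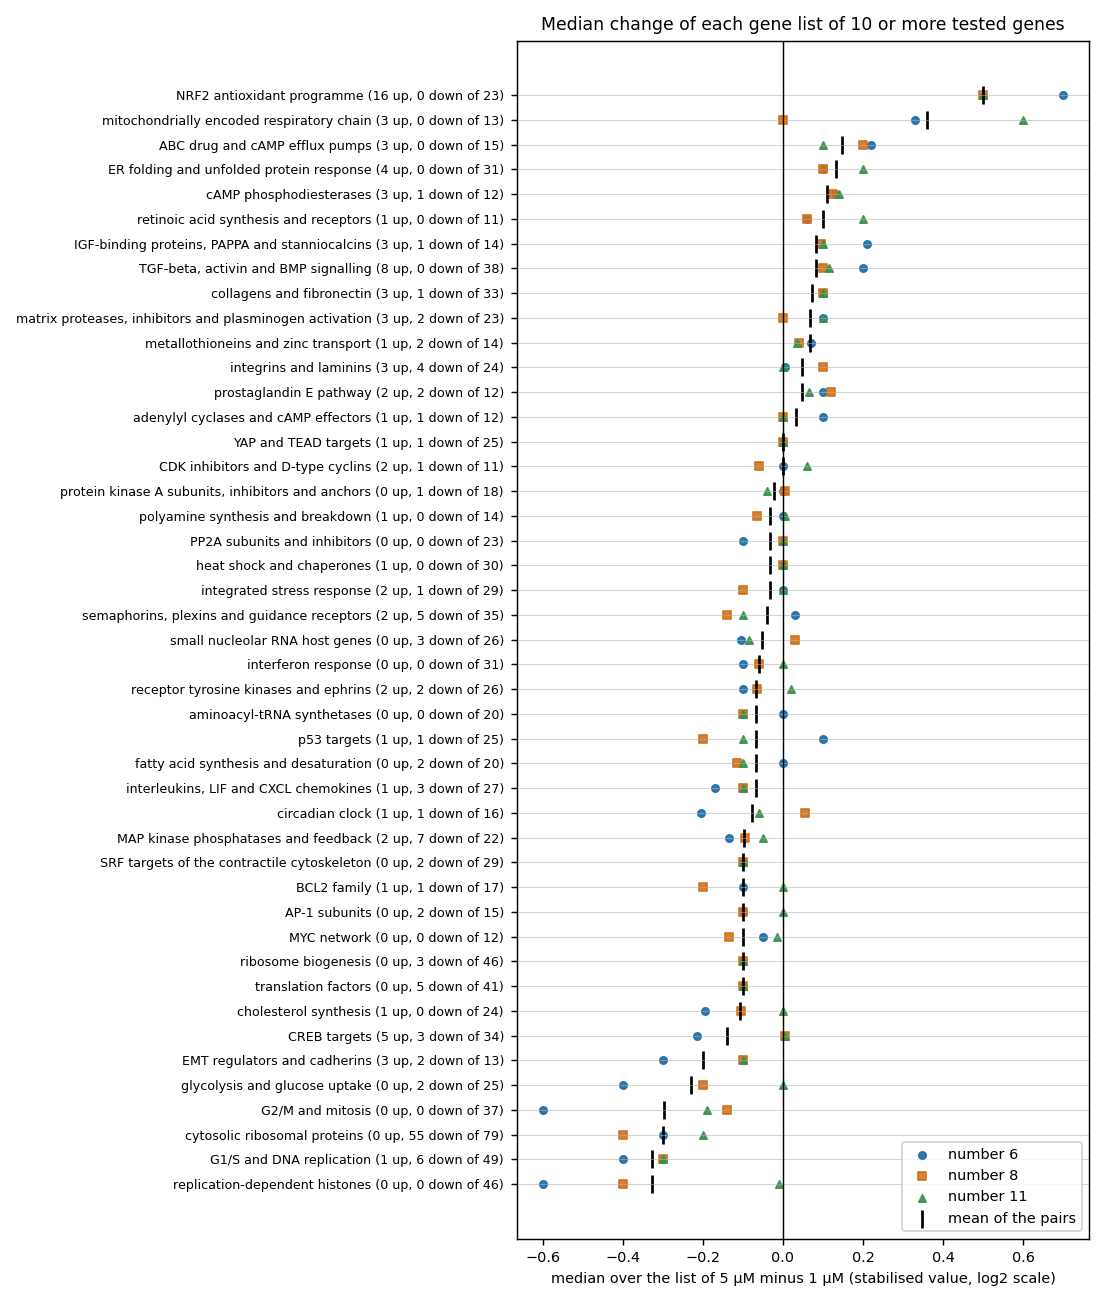
Median over each gene list of the difference of 5 µM minus 1 µM (x axis, stabilised value on the log2 scale) in each label number (coloured symbols) and for the mean of the pairs (black tick), for lists of 10 or more tested genes, with the genes that rose (up) and fell (down) in the paired fit to 12 libraries. The NRF2 list lies highest, at 0.50, and the histone, G1/S, ribosomal protein and G2/M lists lie lowest, at -0.33 to -0.30.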

How the data were processed

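The deposited table held variance-stabilised values on a log2 scale, made by the authors with DESeq2 on GRCh38 (hg38) per the submitters' processing notes; the aligner, counter, annotation, strand setting and gene filter are not given in the sources used here. RNA was ribosome-depleted total RNA in TruSeq libraries, per the labels' protocols. Of 21211 rows, 4 named no gene and stayed out. Names and positions came from GENCODE 29, promoter windows from RefSeq (GRCh38.p14). Normalised counts were recovered by inverting the stabilising curve with a floor of 4.86, and depth from the steps of single reads, with a largest residual of 0.00535.

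The test was limma 3.58.1 (R 4.3.3) with a variance trend, two-sided, with Benjamini-Hochberg adjustment over 16903 genes. p-values measure the spread between these libraries. Libraries were paired by label number, and their deviations correlated above 0.1 in each of the 3 pairs. Mismatched libraries of numbers 8 and 11 also correlated, at 0.47. These correlations therefore cannot decide whether 8 and 11 are matched rightly. 14 alternatives were planned and 6 were added after seeing the data; scripts were tested on simulated data. The rule for named genes took the 14 largest rises and 14 largest falls among called genes with a symbol, up to 4 called members of each of 48 lists (or the member of smallest p) and MYC; other genes were added after their values were seen. The members and lists were chosen with earlier results of these data known. Comparisons of 5 µM with vehicle or 10 µM share libraries with this one and were not tested; those levels are given as description. Some genes are not reported here.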

Additional observations from a re-analysis of the deposited data

How the results depend on the processing

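The number of calls differed with the replicate block, with the libraries in the fit and with the estimate of the spread. Without the block the 6 libraries gave 6 higher and 3 lower, and all 12 libraries 34 and 21; with the block, all 12 gave 447 and 490, against 0 and 0 in the paired fit to 6. Counts of 0 and 0 were also given with no filter on low values, a stricter filter, a filter over 12 libraries, no variance trend, array weights, voom on recovered counts and without each label number (range 0 to 0). Quantile normalization gave 437 and 457 and a median shift 496 and 544; the prior degrees of freedom were 5.26 and 5.73 in these fits and 1.43 in the paired fit to 6 libraries. The cause was not tested. Of the settings added after seeing the data, robust empirical Bayes gave 694 and 939 (422 and 467 shared with the 12-library fit) and 9 libraries without vehicle 520 and 559 (421 and 439 shared). Leaving out the 417 genes of no spread gave 987 and 1359, but that fit put the same spread on all genes of a level, so its p-values are not comparable with the others. The ranges of adjusted p over the other settings given above for single genes do not include that fit. The 12-library fit gave 12 to 367 higher and 2 to 358 lower without 1 label number.

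MYC kept its sign in every setting, from -0.25 to -0.30 without 1 number. It passed with a median shift (-0.26, adjusted p = 0.0365), robust empirical Bayes (-0.27, 0.0207) and the genes of no spread left out (-0.27, 0.0103). None of the named genes took the opposite sign in the settings run. Some that did not pass had no net direction without number 6. STC1, FTL and MXI1 differed by -0.10 in pair 8 and 0.10 in pair 11, and RAPGEF3 by 0.10 and -0.10. Rounding to 0.1 from a value of 10 up limits abundant genes, and 30.9% of values lie there. Rare genes near the floor have understated differences. What the label numbers mark is unknown, and 3 pairs leave 2 residual degrees of freedom.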
